A study of Mus musculus with 36 samples.

Results

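The first hour of the response to IL-1β was described in a mouse fibroblast-like chondrocyte line that had been transfected with a non-targeting siRNA pool (NT). The libraries were taken by their labels, as the 3 NT replicates collected after 1 h with IL-1β and the 3 NT replicates collected at 0 h without it, which make 6 of the 36 libraries of the series. Both groups were wild-type cells of the same line and had received the same control siRNA, so that transfection is common to 0 h and 1 h. IL-1β was given at 10 ng/ml, and the 0 h cells had received none. The line is a single, conditionally immortalised line, and the labels and the methods give different concentrations of the siRNA. No NT library kept for 1 h without IL-1β was part of the comparison, so that the cytokine and the handling of the cells over that hour cannot be told apart. The sources used here do not say whether the replicates were separate cultures, so the p-values measure only the spread between these libraries, which may be technical. In bulk RNA, a change in the number of cells of a kind and a change in RNA per cell cannot be told apart.

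IL-1β binds its receptor IL1R1 together with the accessory protein IL1RAP, and the adaptor MyD88 and the IRAK kinases carry the signal to the kinases TAK1 and IKK and to the MAP kinases JNK, p38 and ERK. IKK marks the inhibitor IκBα for destruction and frees NF-κB for the nucleus, while the MAP kinases act on the transcription factors that bind AP-1 and serum response elements. The genes read first, called immediate-early genes, need no new protein for their transcription, and many of their mRNAs carry AU-rich elements in the 3′ untranslated region (3′UTR) that make them short-lived. In cartilage, IL-1β is known for inducing chemokines, prostaglandin and nitric oxide synthesis and matrix-degrading enzymes.

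Promoter sequences are shown for 9 genes that rose at 1 h, because the letters of a κB site, the element that NF-κB binds, were more frequent in the promoters of the genes with the largest rises (shares below). These 9 genes are a selection and do not stand for the raised genes as a whole. A κB match was found in 27 of the 114 protein-coding genes that rose by over 4-fold and had a promoter window. Each sequence is the 150 bases before the RefSeq start, read 5′ to 3′ on the strand of the gene in GRCm38.p6, and capitals mark matches to a κB site, to the AP-1 motif TGANTCA, to the TATA box motif TATAAA or to a CArG box, the site of serum response factor. All motifs were searched on both strands.
Cxcl1, chr5:90891095-90891244, plus strand: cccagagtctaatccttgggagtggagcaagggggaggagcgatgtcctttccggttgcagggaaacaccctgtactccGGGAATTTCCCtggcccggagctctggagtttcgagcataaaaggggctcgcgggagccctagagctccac
Cxcl2, chr5:90903749-90903898, plus strand: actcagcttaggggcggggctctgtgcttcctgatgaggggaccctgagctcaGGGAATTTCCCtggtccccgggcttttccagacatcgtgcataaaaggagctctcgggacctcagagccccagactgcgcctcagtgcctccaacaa
Ccl20, chr1:83116616-83116765, plus strand: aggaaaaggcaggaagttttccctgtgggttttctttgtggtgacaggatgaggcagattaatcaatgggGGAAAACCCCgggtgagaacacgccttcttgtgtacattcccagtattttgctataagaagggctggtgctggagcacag
Nfkbia, chr12:55492648-55492797, minus strand: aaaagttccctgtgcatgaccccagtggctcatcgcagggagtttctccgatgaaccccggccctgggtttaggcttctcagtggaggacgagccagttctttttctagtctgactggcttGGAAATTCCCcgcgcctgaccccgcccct
Tnfaip3, chr10:19015411-19015560, minus strand: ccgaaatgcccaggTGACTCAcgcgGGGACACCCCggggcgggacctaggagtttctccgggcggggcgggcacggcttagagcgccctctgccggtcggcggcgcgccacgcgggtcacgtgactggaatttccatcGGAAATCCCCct
Ier3, chr17:35821563-35821712, plus strand: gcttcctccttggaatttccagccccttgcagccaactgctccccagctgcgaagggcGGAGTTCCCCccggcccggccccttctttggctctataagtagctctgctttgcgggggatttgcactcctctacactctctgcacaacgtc
Irf1, chr11:53769864-53770013, plus strand: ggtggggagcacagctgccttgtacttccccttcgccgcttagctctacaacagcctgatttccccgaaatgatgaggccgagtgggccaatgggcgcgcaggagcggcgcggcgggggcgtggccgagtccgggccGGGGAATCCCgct
Tnf, chr17:35202008-35202157, minus strand: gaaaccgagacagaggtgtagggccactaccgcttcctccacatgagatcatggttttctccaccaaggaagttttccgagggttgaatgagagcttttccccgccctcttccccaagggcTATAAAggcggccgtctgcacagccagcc
Zfp36, chr7:28379229-28379378, minus strand: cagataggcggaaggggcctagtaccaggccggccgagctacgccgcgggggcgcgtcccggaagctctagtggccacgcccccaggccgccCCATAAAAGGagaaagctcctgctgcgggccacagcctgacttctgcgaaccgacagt

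The neighbouring chemokine genes *Cxcl1* and *Cxcl2* shared the same 11 letters, which hold a pair of overlapping κB matches, and these began 71 bases before the start in *Cxcl1* and 97 bases before it in *Cxcl2*. *Tnfaip3*, which encodes the ubiquitin-editing inhibitor A20, held a κB match 125 bases and another 12 bases before the start, with an AP-1 match at 136 bases. The match in *Nfkbia*, the gene of IκBα itself, began 29 bases before the start. In *Ccl20*, *Ier3* and *Irf1* the κB match began 80, 92 and 13 bases before the start. The window of *Tnf* held a TATA box match at 29 bases and no κB match, and that of *Zfp36*, which encodes tristetraprolin, an mRNA decay factor, held a CArG box match at 58 bases. A match is a description of the letters and not evidence of binding. Over all 20305 RefSeq promoter windows of 300 bases (250 before the start and 50 after), 4.61% held a κB match, 7.42% an AP-1 match, 1.55% a CArG match and 13.2% a TATA box match.

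The 6 libraries held between 19337022 and 23736137 reads counted on genes. Levels are given as CPM, counts put on a common library size with edgeR's TMM method. Printed levels of different genes are compared in TPM, which also allows for transcript length. Without that allowance, the most highly expressed member of a list was picked by mean count, and classes of genes by level were made by mean CPM. The lowest correlation of log2 CPM between libraries of a group was 0.995, and the highest between 0 h and 1 h was 0.972. Replicate pairs differed by more than counting error, with a chi-square per degree of freedom between 2.21 and 2.95. Mitochondrial transcripts took between 1.10% and 1.22% of counts at 0 h and between 0.957% and 1.07% at 1 h, and the TMM factors were between 1.065 and 1.073 at 0 h and between 0.933 and 0.937 at 1 h. *Ift88*, the target of the other siRNA of the series, gave between 9.01 and 10.6 CPM in the 6 NT libraries and between 2.67 and 3.19 CPM in the 6 IFT88siRNA libraries of the same times. Of the chondrocyte markers, *Col2a1* (type II collagen) and *Sox9* (its main transcription factor) had mean levels of 8.35 and 11.3 TPM at 0 h, while *Acan* (aggrecan) had 27 reads over the 3 libraries and was not tested. The fibroblast collagen *Col1a2* stood at 771 TPM. Of the markers of other cell types, several were at or near 0: the macrophage gene *Adgre1* had 0 reads in all 6 libraries and *Ptprc* 10 reads at 0 h and 1 at 1 h, the endothelial *Cldn5* had 0 reads and *Pecam1* 11 and 4, the fat genes *Adipoq* and *Plin1* had 0 reads, the muscle gene *Myod1* had 1 read, and the epithelial *Krt14* had 1. Others were expressed at low levels, with means at 0 h and 1 h of 7.33 and 9.27 CPM for *Cd14* and 1.40 and 2.30 for *Lyz2* (macrophage), 4.78 and 4.39 for *Cebpa* and 2.03 and 4.30 for *Fabp4* (fat), 3.05 and 10.7 for *Acta1* (muscle) and 1.85 and 3.88 for *Cdh1* (epithelial), and their part in the results was not tested.

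Within 1 h, 2926 of 14974 tested genes changed, of which 1453 rose (9.70% of tested genes) and 1473 fell (9.84%). Calls needed more than a 1.5-fold change in either direction together with a Benjamini-Hochberg adjusted p below 0.05 over all tested genes (edgeR's quasi-likelihood test, two-sided). The rises were the larger changes: 212 genes rose and 50 fell by over 4-fold, and 40 genes rose and 1 fell by over 16-fold. The genes that rose took from 8.01% to 8.17% of all counts at 0 h and from 17.9% to 18.3% at 1 h, and the genes that fell took from 3.14% to 3.19% and from 1.55% to 1.62%. All 1 h libraries were above all 0 h libraries in 31.9% of tested genes and below them in 32.1%, so groups that do not overlap were common in this comparison. The share of rises among the calls depended on the scaling: it was 49.7% here, against 39.5% with upper-quartile scaling (1205 higher and 1847 lower) and 34.9% on log2(TPM + 1) (872 higher and 1630 lower), where the median of all genes was shifted by −0.153 on the log2 scale. Changes below are relative to the TMM scaling unless stated otherwise.

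**Figure D1:**
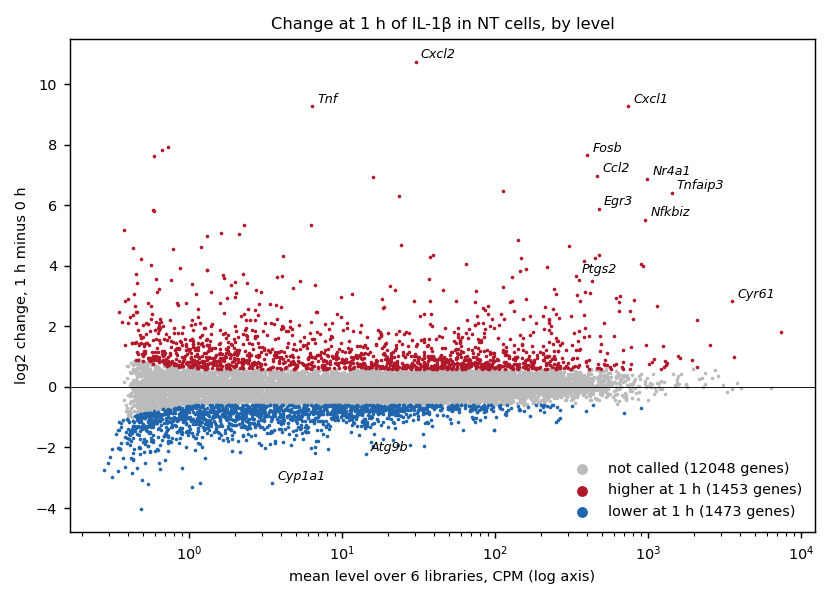
Each point is one of the 14974 tested genes, with its mean level over the 6 libraries in CPM on a log axis and its log2 change from 0 h to 1 h. Red marks the 1453 genes called higher and blue the 1473 called lower. The largest rises reached a log2 change of 10.7 (*Cxcl2*), while the largest labelled fall was −3.18 (*Cyp1a1*).

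The largest rises were taken among called protein-coding genes with a mean of at least 50 counts and groups that did not overlap. The first 15 were 5 chemokines, *Tnf*, 5 transcription factor genes of the FOS, EGR and NR4A families, the NF-κB regulators *Tnfaip3* and *Nfkbiz* and the genes *Ch25h* and *Edn1*. *Cxcl1* (chr5:90891241-90893115), a chemokine that draws neutrophils, gave 2.37, 2.70 and 2.08 CPM at 0 h and 1513, 1398 and 1511 CPM at 1 h, a log2 change of 9.26 ± 0.062 (approximate SE). Its neighbour *Cxcl2* (chr5:90903871-90905938), of the same function, had 2 reads in all at 0 h and 3601 at 1 h, so that its ratio of 2039 has a wide 95% interval, from 563.9 to 16840, which covers counting error only. *Tnf* (chr17:35199381-35202007), a cytokine that itself activates NF-κB, had 0, 0 and 1 reads at 0 h and 247, 260 and 250 at 1 h, a ratio of 857 with an interval from 153 to 33900. All 1 h libraries of these genes were far above all 0 h libraries, and the fitted log2 changes of *Cxcl2* (10.73) and *Tnf* (9.26) depend on the few reads at 0 h. The SE printed here and below is derived from the F statistic and is too small for large changes from few reads. It can fall below counting error, as for *Cxcl1* with 162 reads over the 0 h group and *Ccl20* with 17.

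*Ccl2* (chr11:82035571-82037453), which draws monocytes, rose from 6.63, 8.62 and 6.69 CPM to 917, 871 and 960 CPM, a log2 change of 6.96 ± 0.062. *Ccl7* (chr11:82045712-82047525), its neighbour on the same chromosome, rose by 6.48 ± 0.063, and *Ccl20* (chr1:83116766-83119167), which draws cells that bear CCR6, by 6.94 ± 0.17. The chemokines at the head of the list differed widely in the level they reached: per length, *Cxcl1* stood at 3054 TPM at 1 h, *Ccl2* at 2347, *Ccl7* at 589, *Cxcl2* at 124 and *Ccl20* at 85.3.

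Among the transcription factors, *Fosb* (chr7:19302696-19310051), a subunit of AP-1, rose from 3.78, 4.33 and 3.65 CPM to 828, 785 and 762 CPM, a log2 change of 7.65 ± 0.060. The orphan nuclear receptor gene *Nr4a1* (chr15:101254269-101274795) rose from 16.6, 17.9 and 15.7 CPM to 1990, 1996 and 1891 CPM, or 6.87 ± 0.047. The zinc-finger factors *Egr4*, *Egr3* and *Egr2* rose by 6.31 ± 0.16, 5.88 ± 0.052 and 4.85 ± 0.052. In each of these genes the lowest 1 h library was many times the highest 0 h library, and replicates of a group lay close together, with *Egr4* at 54.4, 38.1 and 46.3 CPM at 1 h as the most spread.

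*Tnfaip3* (chr10:19000910-19015657) rose from 34.3, 35.1 and 30.0 CPM to 2829, 2887 and 2734 CPM, a log2 change of 6.41 ± 0.046. *Nfkbiz* (chr16:55811375-55838899), which encodes the atypical nuclear IκB protein IκBζ, rose from 42.0, 40.3 and 40.5 CPM to 1898, 1822 and 1895 CPM, or 5.51 ± 0.040. *Ch25h* (cholesterol 25-hydroxylase) and *Edn1* (endothelin 1) rose by 5.35 ± 0.18 and 4.67 ± 0.093. The adjusted p-values of the 15 rises in edgeR's quasi-likelihood test were 5.35e-22 or smaller, with n = 3 libraries a group.

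The 12 largest falls by the same rule were smaller than the 15 rises. *Cyp1a1* (chr9:57687928-57703824), a cytochrome P450 that the aryl hydrocarbon receptor induces, fell from 6.28, 6.35 and 6.14 CPM to 0.610, 0.855 and 0.562 CPM, a log2 change of −3.18 ± 0.19. *Atg9b*, an autophagy gene, fell from 25.3, 22.4 and 22.9 CPM to 4.16, 5.04 and 5.82 CPM, or −2.23 ± 0.096. *Klhl42*, an adaptor of a cullin ubiquitin ligase, fell from 54.6, 56.6 and 52.4 CPM to 13.6, 14.5 and 13.7 CPM, or −1.96 ± 0.061. No 1 h library of these genes overlapped the 0 h libraries, which the rule of choice required.

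The growth factor gene *Fgf2* (chr3:37348346-37410108) fell from 37.4, 37.3 and 35.4 CPM to 8.82, 10.3 and 9.96 CPM, a log2 change of −1.92 ± 0.071. The chromatin protein gene *Hmga1* fell by 1.92 ± 0.077 on the log2 scale and *Hmga1b* by 1.96 ± 0.095. These are near-identical copies whose reads cannot be assigned to a copy with certainty, so the value of each is uncertain. The zinc-finger genes *Zfp750* and *Zfp39* changed by −2.17 ± 0.13 and −1.92 ± 0.15, *Med18*, a subunit of the Mediator complex, by −2.00 ± 0.13, and *Rtl10*, *Gm12258* and *Rcsd1* by −2.05 ± 0.12, −2.00 ± 0.12 and −1.93 ± 0.18. The adjusted p-values of the 12 falls were 5.97e-11 or smaller in edgeR's quasi-likelihood test.

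**Figure D2:**
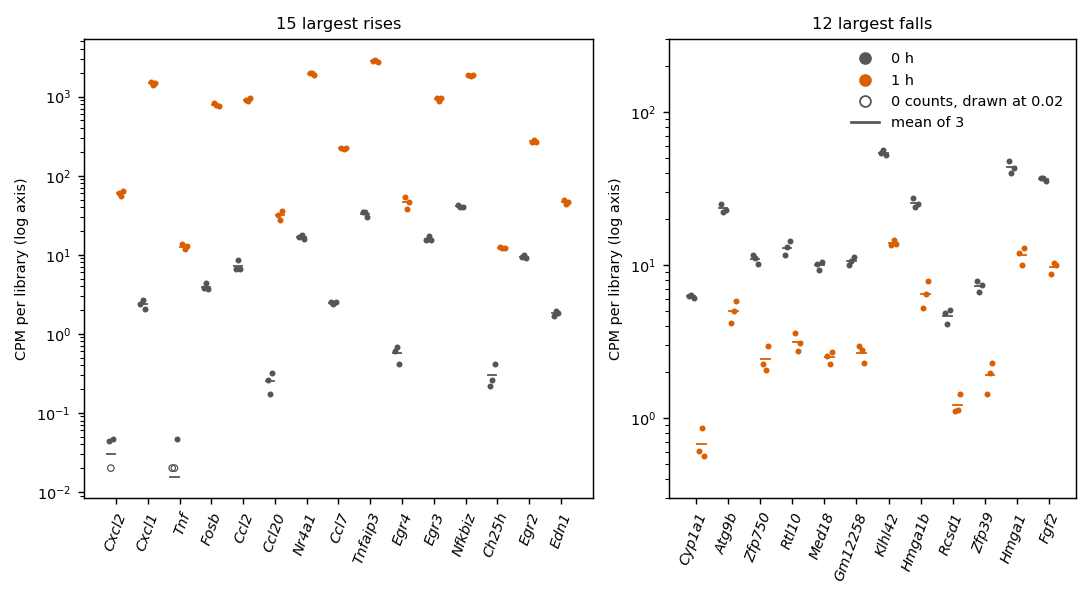
CPM in each of the 3 libraries at 0 h (grey) and 1 h (orange), on log axes, for the 15 largest rises and the 12 largest falls, with a bar at the mean of 3 and open circles for libraries with 0 counts. The groups are apart in all of these genes because the rule of choice required it. The distance is greater in the rises, led by *Cxcl2* (log2 change 10.73), than in the falls, led by *Cyp1a1* (−3.18).

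Of the genes of IL-1 signalling itself, those of the receptor moved little, and the kinase gene *Map3k8* moved most. *Il1r1*, the signalling receptor, was at 33.0, 32.9 and 31.98 CPM at 0 h and 37.2, 38.8 and 40.5 CPM at 1 h, a log2 change of 0.25 ± 0.054 that did not reach the fold threshold. *Il1rap* changed by 0.38 ± 0.038 and was not called either. Counts of this list and of those below are to be read beside the 9.70% of all tested genes that rose and the 9.84% that fell. Members with almost no reads at 0 h, such as *Cxcl2*, *Tnf*, *Csf2* and *Sele*, passed the filter only through their 1 h reads. They could not have been called lower, so the number tested and the share of rises in a list depend on the 1 h values. Of 21 tested members of the receptor and proximal signalling list, 3 rose and none fell (median log2 change 0.31, against −0.0061 over all tested genes): *Map3k8*, the kinase TPL2 that activates ERK, from between 2.59 and 4.43 CPM to between 71.9 and 80.5 CPM (4.35 ± 0.089), *Irak3* (1.001 ± 0.23), an inhibitory IRAK that was called neither on the TPM scale nor when the fold itself was tested, and *Irak2* (0.98 ± 0.066). *Il1r2*, the decoy receptor, had 3 reads at 0 h and 1 at 1 h over the group and was not tested.

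In the list of IκB proteins and ubiquitin feedback, 10 of 20 members rose and none fell, with a median of 0.83. *Nfkbia* went from 42.4, 44.8 and 45.5 CPM to 916, 932 and 897 CPM (4.37 ± 0.041), and per length it stood at 1114 TPM at 1 h, close to *Tnfaip3* at 1046 TPM. *Nfkbid*, another nuclear IκB, rose by 5.06 ± 0.37 from under 0.2 CPM, and *Traf1*, *Bcl3*, *Nfkbie*, *Birc3*, *Tnip3* and *Nfkbib* also rose, by between 1.11 and 3.60. The deubiquitinase gene *Cyld* was at −0.20 ± 0.038 and was not called. Of 11 Rel subunit and IKK genes, 4 rose (median 0.27): *Rel* (2.05 ± 0.053), *Relb* (2.04 ± 0.061), *Rela* (1.20 ± 0.040) and *Nfkb2* (0.99 ± 0.045). *Nfkb1* changed by 0.27 ± 0.040, and the IKK genes *Chuk*, *Ikbkb* and *Ikbkg* by 0.10, 0.0011 and −0.21, none of them called.

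The early transcription factor genes rose almost as a whole. Of 12 AP-1 subunit genes 9 rose, with a median log2 change of 2.47. After *Fosb*, the largest rises were those of *Junb*, from 112, 114 and 104 CPM to 1792, 1735 and 1699 CPM (3.99 ± 0.039), *Fos* (3.62 ± 0.055) and *Maff* (3.28 ± 0.045). *Jun* rose from 124, 122 and 120 CPM to 640, 679 and 593 CPM (2.39 ± 0.042), and *Jdp2*, a repressor of AP-1, was at 0.37 ± 0.054 and was not called. Of 26 EGR, NR4A, IER and KLF genes 22 rose and none fell, with a median of 2.51. Besides the genes named above, these included *Nr4a3* (4.29), *Csrnp1* (4.27), *Ier3* (3.83), *Ier2* (3.05), *Egr1* (2.66) and *Myc* (1.23). *Klf3*, the most highly expressed member that was not called, was at 0.086 ± 0.039.

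Of 35 chemokine genes 21 were tested, and 13 of them rose and none fell (median 1.23). After those described above, the largest rises were *Cxcl5* (4.33 ± 0.24), *Cxcl10* (4.26 ± 0.048) and *Ccl9* (3.48 ± 0.17). *Cxcl12*, a homeostatic chemokine that is made without inflammation, was at 22.6, 23.5 and 25.2 CPM at 0 h and 24.2, 24.6 and 20.4 CPM at 1 h, with overlapping groups (−0.038 ± 0.070). The 14 chemokine genes that were not tested had at most 41 reads in a group, the highest being *Cxcl9*.

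Of 21 tested cytokine and colony-stimulating factor genes 12 rose and none fell (median 1.03), and 7 rose on the TPM scale with a pseudocount of 1. *Csf2*, the gene of GM-CSF, had no read at 0 h and 69 reads at 1 h, at least 26.0-fold higher against a floor of 3 counts over the group. *Il6* was still low at 1 h, with 6, 6 and 4 reads at 0 h and 56, 64 and 65 at 1 h (3.68 ± 0.27), and *Ifnb1*, interferon-β, rose by 5.36 ± 0.31. *Il23a*, *Lif*, *Csf3* and *Csf1* rose by 3.07, 2.85, 2.67 and 2.20. *Il1rn*, the receptor antagonist, was the most highly expressed member that was not called, at 0.19 ± 0.044, and *Il1a* and *Il1b* had at most 8 reads in a group. Among 9 tested adhesion genes 3 rose (median 0.23): *Sele* (E-selectin) from 0 reads to 85, at least 32.1-fold, *Icam1* from between 3.43 and 3.87 CPM to between 29.4 and 43.7 CPM (3.34 ± 0.12), and *Vcam1* from between 11.4 and 12.9 CPM to between 52.8 and 75.1 CPM (2.41 ± 0.089).

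In the list of prostaglandin and nitric oxide synthesis 5 of 15 tested members rose and 1 fell (median 0.18). *Ptgs2*, which encodes the inducible cyclooxygenase COX2, rose from 50.8, 49.4 and 50.8 CPM to 608, 640 and 646 CPM, a log2 change of 3.65 ± 0.041, and *Ptger4*, a receptor of prostaglandin E2, from between 6.82 and 8.08 CPM to between 119 and 125 CPM (4.07 ± 0.060). The other prostaglandin synthesis genes were not called: *Ptgs1* was at −0.062, *Ptges* at −0.16, *Ptges2* at −0.41, *Ptges3* at −0.15 and the phospholipase gene *Pla2g4a* at 0.33. *Nos2*, the inducible nitric oxide synthase, had 1, 0 and 0 reads at 0 h and 3 in each library at 1 h, and did not pass the filter on low counts. The arginine transporter genes *Slc7a2* and *Slc7a1* and the cofactor gene *Gch1* rose by 1.21, 0.81 and 0.71, and *Nos1*, at about 1 CPM or less, fell by 1.32 ± 0.45 on the log2 scale. That call was lost without NT 0 h replicate 2 (−0.81, adjusted p = 0.179 in edgeR's quasi-likelihood test), without NT 1 h replicate 3 (−0.95, adjusted p = 0.0747) and with DESeq2 (adjusted p = 0.0575). Of 22 matrix protease and inhibitor genes 8 rose and none fell (median 0.46), among them *Adamts1* (2.85 ± 0.041), which encodes a secreted metalloproteinase, and *Plaur*, *Plau*, *Adamts9*, *Adamts5*, *Timp3* and *Adamts4*, which rose by between 0.71 and 2.11. The collagenase gene *Mmp13* was at 0.10 and was not called, and *Mmp3* had 12 reads at 0 h and 20 at 1 h over the group and was not tested.

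Some genes of kinase feedback and of mRNA decay changed at the RNA level in the same hour, and their effect on kinases or mRNA decay was not measured. Of 36 genes of kinase feedback 19 rose and 4 fell (median 0.60). *Errfi1*, an inhibitor of the EGF receptor, rose from between 99.6 and 107 CPM to between 1671 and 1748 CPM (4.04 ± 0.037), and the phosphatase genes *Dusp5* and *Dusp1* rose by 3.16 ± 0.049 and 2.90 ± 0.067. *Gadd45b*, a stress-response gene, rose by 3.07 ± 0.042. The phosphatase genes *Dusp7* and *Dusp4* fell, by 1.28 and 0.59 on the log2 scale, and the cytokine-signalling suppressors *Socs3* and *Socs5* by 0.70 and 0.71. Of 22 mRNA decay genes 5 rose (median 0.10): *Zfp36*, whose protein binds AU-rich elements, from 26.5, 27.5 and 25.2 CPM to 398, 456 and 374 CPM (3.96 ± 0.059), *Zc3h12a*, the endonuclease Regnase-1 (3.57 ± 0.082), *Btg2* (2.92 ± 0.038), *Zfp36l1* (1.45 ± 0.048) and *Zfp36l2* (0.66). *Cnot1*, the scaffold of the deadenylase complex, was at −0.0093 ± 0.036.

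Growth factor genes moved in both directions, with 13 of 32 rising and 5 falling (median 0.35). *Ereg*, a ligand of the EGF receptor, rose from between 67.2 and 71.0 CPM to between 748 and 818 CPM (3.50 ± 0.041), and *Pdgfb* rose by 2.54 ± 0.26. *Tgfb2*, *Hgf*, *Gdf15*, *Hbegf* and *Vegfc* rose by between 0.999 and 1.62, and the *Edn1* named above is a member of this list too. Besides *Fgf2*, the genes *Wnt7b*, *Inhbb*, *Pdgfa* and *Pgf* fell, by 1.23, 1.14, 0.90 and 0.78 on the log2 scale. On the TPM scale with a pseudocount of 1, 8 members rose and 4 fell.

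Targets of YAP and serum response factor rose without a fall, in 13 of 23 genes (median 0.70). *Cyr61*, which encodes the matricellular protein CCN1, rose from 868, 881 and 888 CPM to 6159, 6587 and 5983 CPM (2.83 ± 0.032) and stood at 5101 TPM at 1 h, next to the actin gene *Actg1* at 5030 TPM. *Ctgf* (2.50 ± 0.034), *Ankrd1* (2.61 ± 0.082), *Srf* itself (1.79 ± 0.039) and the actin genes *Acta2* (1.40), *Actb* (1.002) and *Actg1* (0.90) also rose. *Flna*, filamin A, was at 0.37 ± 0.029 and was not called. Of 19 clock genes 5 rose (median 0.20): *Nfil3* (1.93 ± 0.054), *Per1* (1.91 ± 0.050), *Bhlhe40* (1.77 ± 0.055), *Rora* (0.96 ± 0.060) and *Npas2* (0.80).

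Other lists divided. Of 28 interferon-stimulated genes 7 rose and 8 fell (median −0.20), with *Irf1*, a transcription factor, from 53.3, 59.5 and 55.4 CPM to 661, 616 and 670 CPM (3.53 ± 0.045), *Gbp5* (2.40 ± 0.11), *Rsad2* (1.49 ± 0.049) and *Ifit1* (1.18 ± 0.037) among the rises, and *Oas2* (−1.08), *Mx2* (−1.05) and *Irf7* (−0.66) among the falls. Of 22 p53 targets 6 rose and 8 fell (median −0.34), with the kinase gene *Plk3* at 2.20 ± 0.050, *Ddit4* at −1.16 ± 0.043 and *Cdkn1a*, the cell-cycle inhibitor p21, at −0.43 ± 0.032 and not called. Targets of BMP, TGF-β and Notch gave 4 rises and 4 falls of 22 (median 0.28), led by *Skil* (1.62 ± 0.045) and *Msx1* (−0.93 ± 0.29). Over all tested genes the shares were 9.70% and 9.84%. The call of *Msx1* was lost on log2(TPM + 1), at −0.53, and when the fold of 1.5 was itself tested (adjusted p = 0.275 in edgeR's glmTreat). Of 11 genes of the secondary response, which in other systems need new protein, 6 rose and *C3* fell (median 1.01). Their starting levels differed: *Cxcl5*, *Saa3* (3.24 ± 0.43) and *Csf3* were all under 0.5 CPM at 0 h and under 10 CPM at 1 h. In contrast, *Ccl5* rose by 1.01 from 2960 reads over the 0 h group to 5258 over the 1 h group. Of the 16 genes of this list, 5 were not tested. *Cxcl5*, *Saa3*, *Csf3* and *Il6* had at most 9 reads in any 0 h library and passed the filter through their 1 h reads. The count of rises and the median of this list therefore depend on the filter.

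Genes of the chondrocyte were partly lowered at 1 h. *Col2a1* fell from 22.7, 18.7 and 20.4 CPM to 7.76, 8.10 and 9.19 CPM, a log2 change of −1.301 ± 0.089 with no overlap of the groups, and *Col9a3*, a partner of type II collagen in the fibril, fell from between 7.94 and 8.92 CPM to between 2.50 and 3.87 CPM (−1.34 ± 0.13). *Matn1*, *Col10a1* and *Col11a2* also fell, so that 5 of 14 tested markers fell and 3 rose (median 0.17): *Sox6* (1.47 ± 0.18), *Comp* (1.23) and *Col11a1* (1.21). *Sox9* was at 0.10 ± 0.065 with overlapping groups. Of 13 fibroblast markers 4 rose and none fell (median 0.15), with *Col3a1* from 293, 298 and 274 CPM to 961, 868 and 915 CPM (1.66 ± 0.039), *Lum* (1.58 ± 0.29), *Dcn* (1.45 ± 0.077) and *Twist1* (0.66 ± 0.042). The call of *Twist1* was lost in 5 alternatives: upper-quartile scaling (0.58), log2(TPM + 1) with and without a filter (0.40), log2(TPM + 0.1) (0.41) and a test of the fold itself (adjusted p = 0.0827 in edgeR's glmTreat). The few tested markers of other cells moved both ways, and the summed level of the macrophage list was between 15.5 and 17.2 CPM at 0 h and between 15.6 and 17.2 CPM at 1 h. The summed levels were between 1.93 and 2.72 and between 1.05 and 1.80 CPM for the endothelial list, between 2.75 and 4.199 and between 3.98 and 5.71 CPM for the epithelial list, between 2.86 and 3.39 and between 9.002 and 13.5 CPM for the muscle list, which was *Acta1* alone, and between 7.56 and 9.14 and between 10.1 and 11.8 CPM for the fat list.

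The falls had large families among them. Of 311 tested zinc-finger genes named Zfp and a number, 125 fell and 13 rose (median −0.40), and the number that fell was 121 with DESeq2, 139 with upper-quartile scaling and 120 on log2(TPM + 1). *Zfp273* fell from between 1.63 and 2.15 CPM to between 0.0900 and 0.255 CPM (−3.32 ± 0.35) and *Zfp3* by 2.15 ± 0.22 on the log2 scale, while *Zfp91*, the most highly expressed member that was not called, was at 0.084 ± 0.036. Of 35 tested clustered histone genes 17 fell and none rose (median −0.66), in libraries made from poly(A) RNA, whereas most histone mRNAs carry no poly(A) tail. *Hist1h4c* fell by 2.19 ± 0.45 on the log2 scale, from a mean of 0.709 CPM to 0.151 CPM. *Hist2h4* fell by 1.43 ± 0.25, from 1.99 CPM to 0.728 CPM, so both calls rest on low levels. *Hist1h1c*, at 121, 118 and 124 CPM at 0 h and 111, 101 and 104 CPM at 1 h, was at −0.20 ± 0.041 and was not called. The 86 tested genes of cytosolic ribosomal proteins held no call in either direction (median −0.15), and with adjusted p alone 63 of them were lower and 3 higher, with *Rplp0* at −0.21 ± 0.031.

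**Figure D3:**
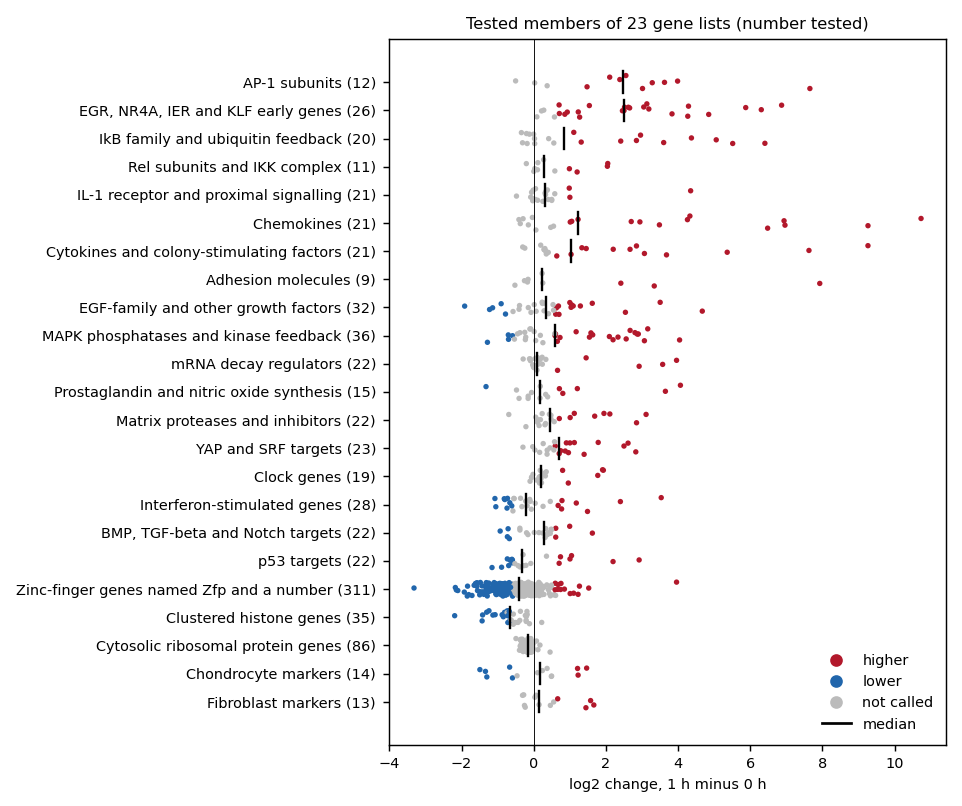
Log2 change from 0 h to 1 h of every tested member of 23 gene lists, 1 point per gene, with the number tested after each name and a black bar at the median. The AP-1 and EGR lists have medians of 2.47 and 2.51, while most points of the zinc-finger and histone lists lie below 0 (medians −0.40 and −0.66).

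Genes outside the protein-coding class changed as well. Of 345 tested lincRNAs 10.4% rose and 24.9% fell, of 395 antisense genes 15.4% rose and 15.4% fell, and of 224 processed transcripts 9.82% rose and 27.2% fell, against 9.43% and 8.91% of 12677 protein-coding genes. These shares make no allowance for level. Of the protein-coding genes of lowest level (up to 5.74 CPM), 14.1% rose and 22.4% fell. The part of level in the differences between classes was not tested. The antisense gene *A130051J06Rik* (chr15:95787856-95791642) rose from between 0.558 and 0.600 CPM to between 6.44 and 8.38 CPM (3.68 ± 0.19), the sense-intronic *Gm17024* (chr12:40209487-40211073) by 3.37 ± 0.16 and the antisense *Gm26586* (chr8:72137389-72140820) by 2.46 ± 0.12. The lincRNAs *Gm42743* and *Gm26724* fell by 2.01 ± 0.20 and 1.55 ± 0.19 on the log2 scale, and *Gm37795*, an unclassified transcribed region (class TEC), by 1.57 ± 0.085. The default of the counting tool takes no account of strand, so reads of an antisense or intronic gene and of the gene it overlaps cannot be told apart.

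The genes that rose most were short, and their promoters held κB and TATA box letters more often than those of the other groups. These features come from the annotation and were described without a test. The 152 protein-coding genes that rose by over 4-fold had a median genomic span of 8.91 kb and 4 exons, against 24.2 kb and 9 exons over all 12677 tested protein-coding genes, 26.6 kb and 9 exons for the 1043 that rose by 1.5- to 4-fold, and 14.5 kb and 5 exons for the 1130 that fell. Of the 114 of them with a RefSeq promoter window, 27 (23.7%) held a κB match and 26 (22.8%) a TATA box match, against 5.15% and 6.99% over all tested protein-coding genes with a window. With 75.0% of the strongly raised genes and 77.9% of all tested protein-coding genes in the promoter table, under 80% had a value, so that a comparison of these shares is void as a check of the whole groups and holds for the genes with a window only. The AP-1 motif was found in 8.77% against 4.91%, the cAMP response element TGACGTCA in 6.14% against 3.30% and the CArG box in 3.51% against 1.39%. The raised genes of 1.5- to 4-fold held a κB match in 5.68% and those that fell in 3.41%.

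By list, a κB match was found in 6 of 14 tested chemokine genes with a window (*Ccl20*, *Ccl9*, *Cxcl1*, *Cxcl10*, *Cxcl2* and *Cxcl3*), in 8 of 17 genes of the IκB and ubiquitin feedback list, in 3 of 10 AP-1 subunit genes and in none of 29 genes of kinase feedback. All 6 of the chemokine genes with a match rose, as the values above and those of *Cxcl3* (2.70) show. They were part of the 13 of 21 tested chemokine genes that rose. *Ccl2*, *Ccl7* and *Cxcl5* rose too and either held no match or had no window. *Cyld*, *Tnip1* and *Traf3* of the feedback list held a match and were not called. In the 3′UTR of the longest transcript, the heptamer TATTTAT, which occurs in AU-rich elements, was found in 54.6% of the genes that rose by over 4-fold, 35.1% of those that rose by less, 26.2% of those that fell and 30.7% of all tested protein-coding genes with a 3′UTR. The pentamer ATTTA had a median density of 2.26 per kb of 3′UTR in the first group, 1.47 in the genes that rose by less and 1.10 in those that fell. It occurred 8 times in the 764 bases of *Tnf*, 11 times in the 1494 bases of *Cxcl2*, 9 times in the 317 bases of *Csf2* and 14 times in the 2445 bases of *Ptgs2*, and once in the 2145 bases of *Fosb*.

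**Figure D4:**
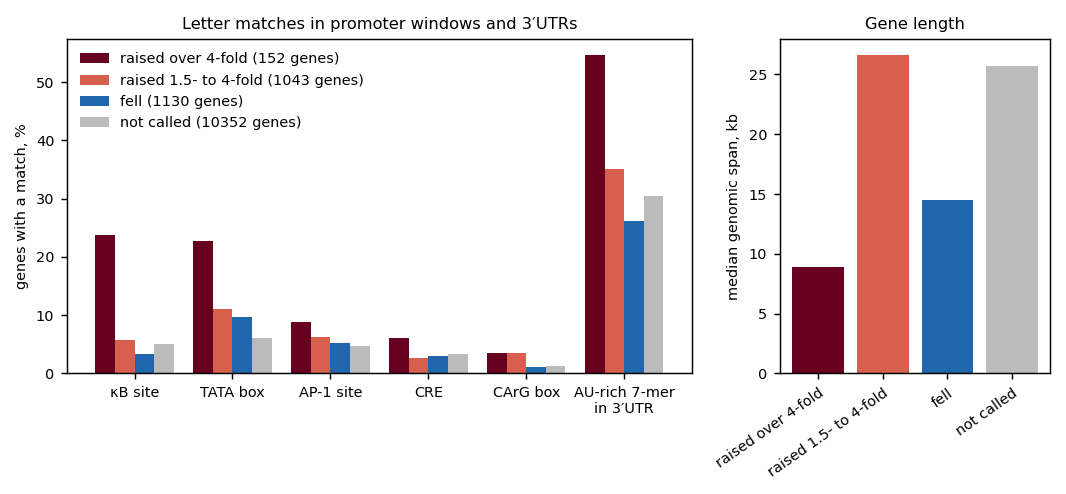
Left, the percent of protein-coding genes whose RefSeq promoter window (or 3′UTR, last group of bars) held a match, by the change at 1 h. Right, the median genomic span in kb. The genes that rose by over 4-fold have the highest share for the κB site (23.7%) and the AU-rich heptamer (54.6%) and the lowest median span (8.91 kb).

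The span and the level of a gene moved with its change. When protein-coding genes were divided by span into 5 classes of equal size, 70 of the genes that rose by over 4-fold were in the shortest class (up to 8.19 kb) and 5 in the longest (over 70.4 kb). Rises as a whole were 11.3% of the shortest and 11.9% of the longest class and between 7.11% and 9.24% of those between them, and falls went from 12.9% in the shortest to 3.91% in the longest. By mean level, falls were 22.4% of the lowest class (up to 5.74 CPM) and 13.6%, 4.02% and 3.08% of the next ones, and rises were 14.1% of the lowest and 10.8% of the highest. The part of depth and of gene length in these shares was not tested.

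The later times of the NT series place these changes in time, as a description only, because all of the comparisons share the 3 libraries of 0 h. In the model of all 18 NT libraries, the 212 genes that rose by over 4-fold had a median log2 change from 0 h of 2.79 at 1 h, 2.61 at 2 h, 1.82 at 4 h, 0.92 at 8 h and 0.19 at 24 h. The 1473 genes that fell had medians of −0.89, −0.92, −0.32, −0.18 and −0.16. *Fosb* was at 7.66 at 1 h, 4.84 at 2 h, 1.28 at 4 h, −0.12 at 8 h and −0.34 at 24 h, and *Egr3* went from 5.88 to 3.61, 0.46, −1.83 and −2.53. *Cxcl1* kept a high value throughout, at 9.27, 8.32, 8.19, 7.88 and 8.22. Other genes had their highest value later: *Ch25h* was at 5.35 at 1 h and 8.002 at 4 h, *Il6* at 3.68 and 8.46, *Vcam1* at 2.42 and 5.93, and *Icam1* at 3.34 and 5.35. Of the falls, *Fgf2* was at −1.91 at 1 h, 0.98 at 2 h and 2.26 at 4 h, and *Hmga1* at −1.92, −0.61 and 1.08, whereas *Atg9b* was at −2.22, −2.26 and −2.31.

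**Figure D5:**
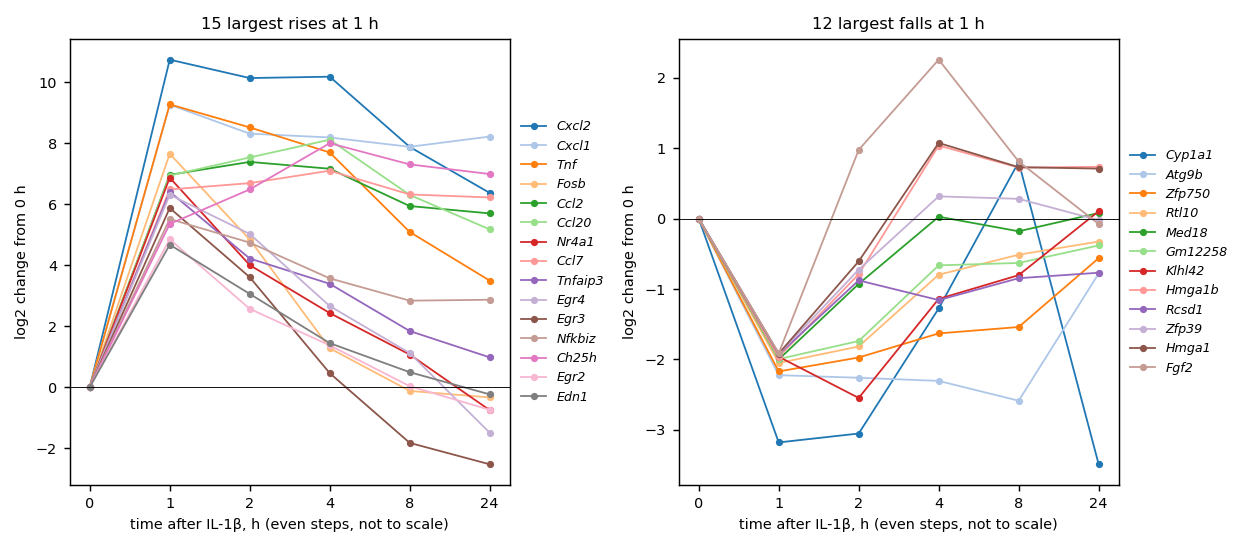
Log2 change from 0 h at each later time, up to 24 h of IL-1β, in the model of 18 NT libraries, with evenly spaced times, for the 15 largest rises and 12 largest falls at 1 h. *Fosb* and *Egr3* are back near or below 0 by 8 h (−0.12 and −1.83), *Cxcl1* and *Ch25h* are not (7.88 and 7.31), and *Fgf2* is at 2.26 at 4 h.

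The same contrast in IFT88siRNA cells used 6 libraries that the NT comparison did not use. There, 2373 of 15074 tested genes changed (15.7%), of which 1075 rose (7.13%) and 1298 fell (8.61%). Among the 14734 genes tested in both, 911 genes rose in both, which is 64.7% of the NT rises and 86.8% of the IFT88siRNA rises, and 959 fell in both, which is 68.5% of the NT falls and 76.1% of the IFT88siRNA falls. In 3 genes the calls were opposite. The difference of the 1 h change between the siRNA groups was tested with an interaction term on the 12 libraries of both groups, and 117 of 15711 genes passed both thresholds (0.745%), 18 with a higher and 99 with a lower change in IFT88siRNA. Of these, 87 had risen in NT, 80 of them by less in IFT88siRNA and 7 by more. The NT calls and the interaction share the 6 NT libraries, and a choice by a rise in NT favours smaller changes in IFT88siRNA.

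Among the named genes, 5 differed by this test. *Icam1* was at 39.2, 29.3 and 43.6 CPM at 1 h in NT and at 12.8, 10.7 and 12.7 CPM in IFT88siRNA, with 0 h levels between 2.70 and 3.85 CPM in both, and the difference of its log2 change, IFT88siRNA minus NT, was −1.42 ± 0.22 (adjusted p = 0.000353, edgeR's quasi-likelihood test). *Vcam1* was at 65.7, 52.7 and 75.0 CPM in NT and at 31.8, 24.03 and 31.6 CPM in IFT88siRNA at 1 h, and the difference was −1.15 ± 0.16 (adjusted p = 0.000149, edgeR's quasi-likelihood test). In both genes the 1 h libraries of the siRNA groups did not overlap. *Ereg*, *Errfi1* and *Dusp1* had larger changes in IFT88siRNA, by 0.69 ± 0.076, 0.62 ± 0.059 and 0.76 ± 0.15. For *Ereg* and *Errfi1* the 1 h levels of the siRNA groups overlapped and the 0 h levels did not, at between 67.0 and 70.7 CPM in NT and between 38.6 and 47.4 CPM in IFT88siRNA for *Ereg*. Without IFT88siRNA 1 h replicate 1 the difference of *Errfi1* was 0.58 and that of *Dusp1* was 0.58 without IFT88siRNA 1 h replicate 2, both under the fold threshold. *Dusp1* was higher in all 3 IFT88siRNA libraries at 1 h, at 372, 502 and 350 CPM against 273, 325 and 243 CPM. The 15 largest rises of NT held no gene called by this test, although *Fosb*, *Nr4a1*, *Egr3*, *Nfkbiz* and *Egr2* passed its adjusted p threshold with larger changes in IFT88siRNA, by 0.40, 0.33, 0.35, 0.23 and 0.48, all under 1.5-fold. For the other 10 genes the differences, IFT88siRNA minus NT, ran from −3.01 (*Tnf*) to 1.304 (*Cxcl2*), and a p above the threshold does not show equal changes. The difference was −3.01 ± 1.31 for *Tnf*, 1.304 ± 1.26 for *Cxcl2*, 1.15 ± 0.66 for *Egr4* and −0.78 ± 0.56 for *Ccl20*, with wide errors, and 0.27 ± 0.15 for *Cxcl1*, 0.15 ± 0.11 for *Ccl2* and 0.03 ± 0.07 for *Tnfaip3*.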

How the data were processed

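Poly(A) RNA libraries were sequenced, and the authors aligned the reads with HISAT2 2.1.0 and deposited whole-number counts per gene from featureCounts (Subread 1.6.3), whose default takes no account of strand. The authors also deposited TPM values, estimated with Salmon 0.9.1. The deposited table held 53421 genes, and 38447 did not pass edgeR's filter on low counts. The counts of 6 libraries (19337022 to 23736137 reads) were scaled by TMM and tested with edgeR 4.0.16 (quasi-likelihood test) in R 4.3.3, with calls at an adjusted p under 0.05 and a fold over 1.5. The SE is approximate: it is the size of the log2 change divided by the square root of F. It is too small for large changes from few reads. Intervals and floors (3 counts) cover counting error only, since no molecular identifiers were counted. TPM values were tested with limma 3.58.1 on log2(TPM + 1). The 0 h and 1 h libraries of IFT88siRNA entered an interaction model, and all 18 NT libraries a model over time. The code was tested on simulated data.

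Named genes were the 15 largest rises and 12 largest falls among called protein-coding genes with a mean of at least 50 counts and groups that did not overlap, 3 each way in other classes by the same rule, in each list up to 4 called members with the largest changes and the most highly expressed member without a call, *Ift88*, *Nos2*, *Il6*, *Tnf*, *Ptgs2*, *Jun*, *Il1r1* and *Il1rap* whatever their values, and those of these genes that the interaction test called. Other list members were named after their values were seen. A result that this rule would name is not reported here. The comparison, members and lists were chosen with earlier results of these data known. Alternatives were DESeq2 1.42.0, other scalings, filters, thresholds and TPM settings, a replicate block, and leaving out each library. Promoter and motif letters came from RefSeq tables of GRCm38.p6, and figures were drawn in Python 3.11.15 with matplotlib 3.10.9.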

Additional observations from a re-analysis of the deposited data

Results flagged for a closer look

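The change from 0 h to 1 h differed between IFT88siRNA and NT in 5 named genes by the interaction test of edgeR's quasi-likelihood fit on 12 libraries, and the difference is given as IFT88siRNA minus NT on the log2 scale. It was 0.686 for *Ereg* (adjusted p = 6.81e-06), 0.619 for *Errfi1* (adjusted p = 9.56e-07) and 0.76 for *Dusp1* (adjusted p = 0.00363), which rose by more in IFT88siRNA. It was −1.42 for *Icam1* (adjusted p = 0.000353) and −1.15 for *Vcam1* (adjusted p = 0.000149), which rose by less. The rises themselves were 4.19 and 3.50 for *Ereg*, 4.66 and 4.04 for *Errfi1*, 3.66 and 2.90 for *Dusp1*, 1.93 and 3.34 for *Icam1* and 1.27 and 2.41 for *Vcam1*, in IFT88siRNA and NT.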

How the results depend on the processing

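The number of genes called at 1 h in NT (2926) was 8944 without the fold threshold (4487 higher, 4457 lower) and 1630 when the fold of 1.5 was itself tested (948 and 682). It was 2630 with DESeq2, 2918 with DESeq2's size factors, 3366 without a filter on low counts and 2995 in the model of 18 libraries. The genes called higher numbered 872 on log2(TPM + 1), 943 with a pseudocount of 0.1 and 842 without a filter. The interaction gave 634 genes without the fold threshold and 97 with DESeq2. Leaving out 1 library at a time gave between 2867 and 3004 calls in NT, 1425 to 1486 higher and 1437 to 1557 lower, 2255 to 2459 in IFT88siRNA and 84 to 140 for the interaction. Same-numbered replicates did not deviate together (correlations −0.0619, −0.00702 and −0.0119), which cannot show whether the cultures were paired. The replicate block gave 2881 calls (1439 higher, 1442 lower) in NT, 2390 in IFT88siRNA and 156 for the interaction. Of 2428 pairs of a named gene and an alternative, 40 lost and 28 gained a call, and 0 changed direction. Of the lists, histone falls went from 17 to 5 when the fold was tested and to 27 on log2(TPM + 0.1), and zinc-finger falls from 125 to 82 when the fold was tested. The causes were not tested. At this depth, genes with few counts at 0 h have folds known only within wide limits.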

Other observations

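A pair of gene families outside the lists was noticed after the values were seen, and no test was made of them as families. Of 30 tested protocadherin genes (names beginning with Pcdh), 17 rose and none fell, with a median log2 change of 0.757 and a range from −0.539 to 1.96. Over all tested genes 9.70% rose and 9.84% fell. The clustered protocadherins share constant exons, whose reads cannot be assigned to a single member, so the values of single members are uncertain. Of 13 tested host genes of small nucleolar RNAs (names beginning with Snhg), none rose and 7 fell, with a median of −0.613 and a range from −1.03 to 0.473. Falls were more frequent in non-coding classes, at 24.9% of lincRNAs and 27.2% of processed transcripts. The part of gene class and level in these counts was not tested.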
